A study of Mus musculus with 24 samples.

Results

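Gene expression was compared directly between mammospheres from mice without Trp53 and mammospheres from ErbB2 tumours. Mammospheres are floating spheres that mammary cells form when they cannot attach. The compared features were the 13207 genes listed in both of the authors' tables that hold these groups, out of 14699 genes in the knockout table and 13288 in the ErbB2 table. The 7 libraries are part of a series of 24 libraries of polyadenylated mouse RNA. Each table has the authors' floor on the mean. The ErbB2 table also lacks many genes with high wild-type means, for a reason that is not stated. Whether tumour values played a part in that is not known. No further value of either group was used here to choose genes.

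The Trp53 knockout group had 2 libraries from the normal mammary gland of FVB/Hsd mice aged 7 weeks. The ErbB2 group had 5 libraries from breast tumours of FVB/Hsd transgenic MMTV-ErbB2 mice aged 12 to 15 weeks, in which the MMTV promoter drives a mutated form of ErbB2, per the file headers, mainly in mammary epithelium. Both groups were uninfected and untreated and were sampled 72 hours after plating at passage 6 to 7. Wild-type spheres (3 libraries, normal gland, FVB/Hsd, 7 weeks, passage 3) linked the tables and carried an empty lentiviral vector. A further 3 libraries of ErbB2 tumour spheres had received 2.5 µM Nutlin-3 for 72 hours and were compared by the authors with 3 of the 5 untreated tumour libraries, paired by tumour. Genotype differs between the main groups together with tissue of origin (normal gland or tumour) and age, and these cannot be told apart.

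p53, the product of Trp53, is a transcription factor that is stabilised by DNA damage and oncogenic stress and switches on genes for cell cycle arrest, death and repair. Mdm2, itself a p53 target, marks p53 for destruction, and Nutlin-3 is a small molecule that keeps Mdm2 from binding p53. ErbB2 is a receptor tyrosine kinase whose activation in the mammary gland produces tumours, and the labels name no change of Trp53 in these mice.

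All levels below are means over the libraries of a group, in the authors' normalised counts, with the knockout table multiplied by 0.903 so that the wild-type means of both tables coincide. After that scaling the wild-type log2 ratio between tables lay within -0.00031 and 0.00038 of its median for the 1st to the 99th percentile of genes. No value per library is in these tables. The 3 untreated libraries of the Nutlin-3 comparison were taken to be among the 5 tumour libraries, because the labels hold no other untreated ErbB2 samples. On that reading the tumour mean of 12675 genes was split into the mean of those 3 libraries and the mean of the other 2. This gives the only view of the spread among tumours. The mean of the other 2 is a remainder after scaling and subtraction, so its low values are uncertain. An effect is the log2 ratio of knockout over tumour mean, each plus 1, and the value after ± is an approximate standard error built from the authors' p-values. A gene is called where the effect was at least 2-fold and the adjusted p was below 0.05. That p is from a two-sided approximate Wald test, Benjamini-Hochberg adjusted over all 13207 genes. The authors' p-values cover all 5 tumour libraries. A call against a single tumour set therefore has no error of its own and may be too lenient.

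By this rule 422 genes (3.2% of those tested) were higher and 424 (3.21%) were lower in knockout than in tumour spheres, in all 846 genes (6.41%), and the median effect over all genes was 0.0043. Of the higher genes, 373 had a split tumour mean, and 345 of them were at least 2-fold above both tumour sets. Of the lower genes, 391 of 424 were at least 2-fold below both tumour sets. Genes of the interferon response made the group furthest above the diagonal, and targets of p53 were displaced below it.

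**Figure D1:**
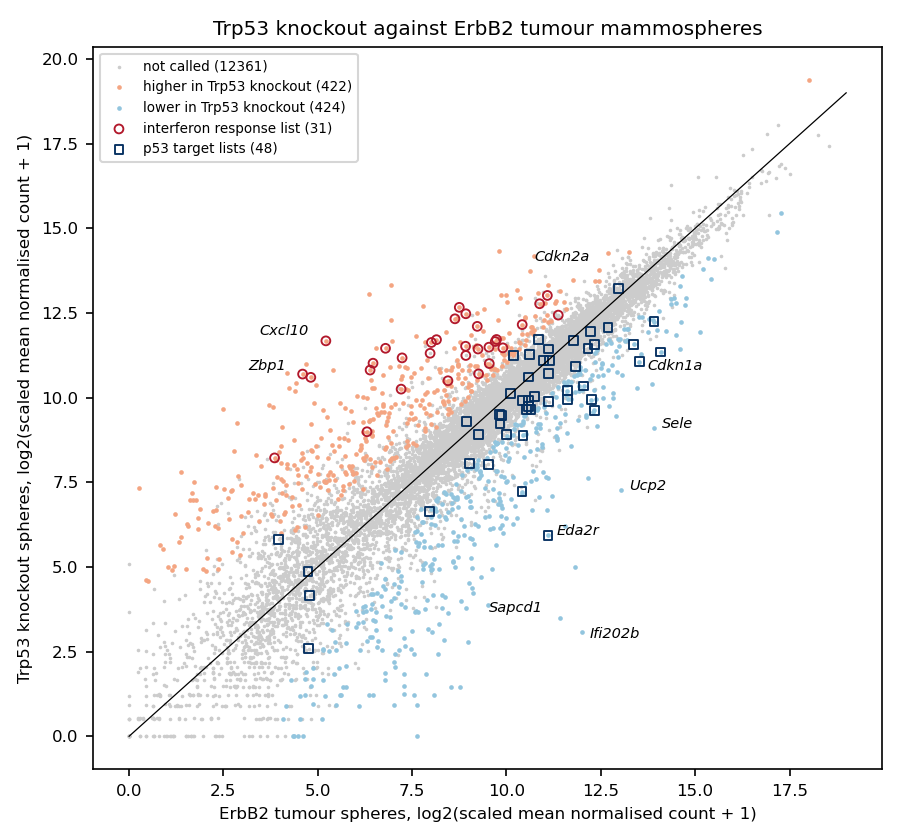
Scaled mean normalised counts plus 1 on log2 axes, Trp53 knockout (vertical, mean of 2 libraries) against ErbB2 tumour spheres (horizontal, mean of 5 libraries), 1 point per gene. Orange points are the 422 genes called higher and pale blue points the 424 called lower in the knockout; red circles are the 31 interferon genes and dark squares the 48 p53 targets in both tables, and the line marks equal levels.

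Trp53 transcripts were still counted in the knockout. The gene (GENCODE M21, GRCm38, chr11:69580359-69591873) averaged 2706 in knockout spheres, against 4683 in ErbB2 tumour spheres and 3798 in wild-type spheres. The effect was -0.79 ± 0.18 (adjusted p = 3.28e-04), below the 2-fold limit. The labels do not say which part of the gene was removed, so reads over the rest of the gene do not test the label, whereas p53 targets bear on it. Among the 122 genes within 5 Mb of Trp53, 4 were called higher and 1 lower (4.10%), against 5.88% of the 935 genes on the rest of chromosome 11 and 6.42% of all 12595 genes with coordinates.

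Targets of p53 were lower in knockout than in tumour spheres in 13 of the 48 that were in both tables (background 3.21%) and higher in 1 (background 3.2%), with a median effect of -0.69. For each of the 13 the knockout mean was below both the tumour and the wild-type mean. Of the 16 measured genes of arrest and feedback, 7 were lower and none higher (median effect -0.77, which was -1.26 over genes with a mean of at least 50 and -1.20 against the other 2 tumour libraries). Cdkn1a, the CDK inhibitor p21 that halts the cell cycle, averaged 2140 in knockout spheres, against 11754 in tumour spheres (12305 in the 3-library set and 10929 in the other 2) and 20371 in wild type. Its effect was -2.46 ± 0.36 (adjusted p = 2.63e-09). Mdm2 averaged 3037 in knockout spheres, against 10603 in tumour spheres and 17157 in wild type (-1.80 ± 0.30, adjusted p = 2.29e-07). Both tumour sets lay well above the knockout for each of these genes.

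Ccng1, the cyclin G1 gene, had the largest deficit among the arrest genes. It averaged 2604 in knockout spheres, against 17456 in tumour spheres and 18495 in wild type (-2.74 ± 0.27, adjusted p = 3.46e-21). Zmat3, an RNA-binding p53 effector, averaged 792 in knockout spheres, against 5121 in tumour spheres (5123 and 5118 in its 2 sets) and 7027 in wild type (-2.69 ± 0.19, adjusted p = 8.16e-41). The remaining called members were Trp53inp1 (-2.31 ± 0.36), Phlda3 (-1.70 ± 0.40), an inhibitor of Akt signalling, and Sesn2 (-1.67 ± 0.44), a stress-induced inhibitor of mTORC1. Uncalled members reached 1.85 ± 1.07 in Sfn, which had low means of 55.3 in knockout and 14.6 in tumour spheres (adjusted p = 0.365). Mdm4, the Mdm2 relative that also restrains p53, averaged 2170 in knockout and 2016 in tumour spheres (0.11 ± 0.40, adjusted p = 0.946).

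Among 14 p53 targets of cell death, 3 were lower and none higher (background 3.21% and 3.2%). The median effect was -0.86, and -0.44 against the other 2 tumour libraries. Eda2r, a TNF-receptor family member, averaged 60.3 in knockout spheres, against 2196 in tumour spheres (1872 and 2683 in its sets) and 2632 in wild type (-5.16 ± 0.39, adjusted p = 3.79e-37). Aen, a nuclease of apoptosis, was lower by -1.41 ± 0.27, and Tnfrsf10b, a TRAIL receptor, lay just past the 2-fold limit, at 800 in knockout and 1605 in tumour spheres (adjusted p = 0.0152). The BH3-only gene Bbc3 was not called, with 481 in knockout and 608 in tumour spheres (-0.34 ± 0.32, adjusted p = 0.666), and Bax passed the test but not the 2-fold limit (-0.76 ± 0.25, adjusted p = 0.0314). Against the other 2 tumour libraries alone Tnfrsf10b was not called (-0.85). For Casp1, the inflammatory caspase, the knockout averaged 943 and the tumour 2229, made of 3652 in the 3-library set and 93.8 in the other 2 libraries; it was not called.

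Among 18 targets of repair, metabolism and signalling, 3 were lower and 1 higher (background 3.21% and 3.2%, median effect -0.64). Gdf15, a stress-induced secreted factor, averaged 148 in knockout spheres, against 1360 in tumour spheres and 1495 in wild type (-3.19 ± 0.65, adjusted p = 4.92e-05). Sulf2, an extracellular sulfatase, and Dcxr, a xylulose reductase, were lower by -1.67 ± 0.42 and -1.55 ± 0.40. The higher gene was Tap1, the peptide transporter of antigen presentation and also an interferon-induced gene (1.08 ± 0.27, adjusted p = 0.0016; not called against the other 2 tumour libraries, 0.89). The nucleotide excision repair gene Xpc was not called (0.35 ± 0.24, adjusted p = 0.463).

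Many p53 targets were higher in tumour spheres treated with Nutlin-3 than in untreated ones. In the authors' deposited table, 30 of the 48 targets had a higher level after Nutlin-3 at adjusted p below 0.05 and 2 a lower level, where 7.82% and 7.12% of the 12675 genes did so. The deposited log2 fold changes were 0.89 for Cdkn1a, 1.27 for Mdm2, 0.82 for Ccng1, 0.66 for Zmat3, 0.80 for Eda2r and 0.46 for Gdf15. The untreated tumour libraries enter both this comparison and the one with the knockout, so the values stand side by side and were not correlated.

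**Figure D2:**
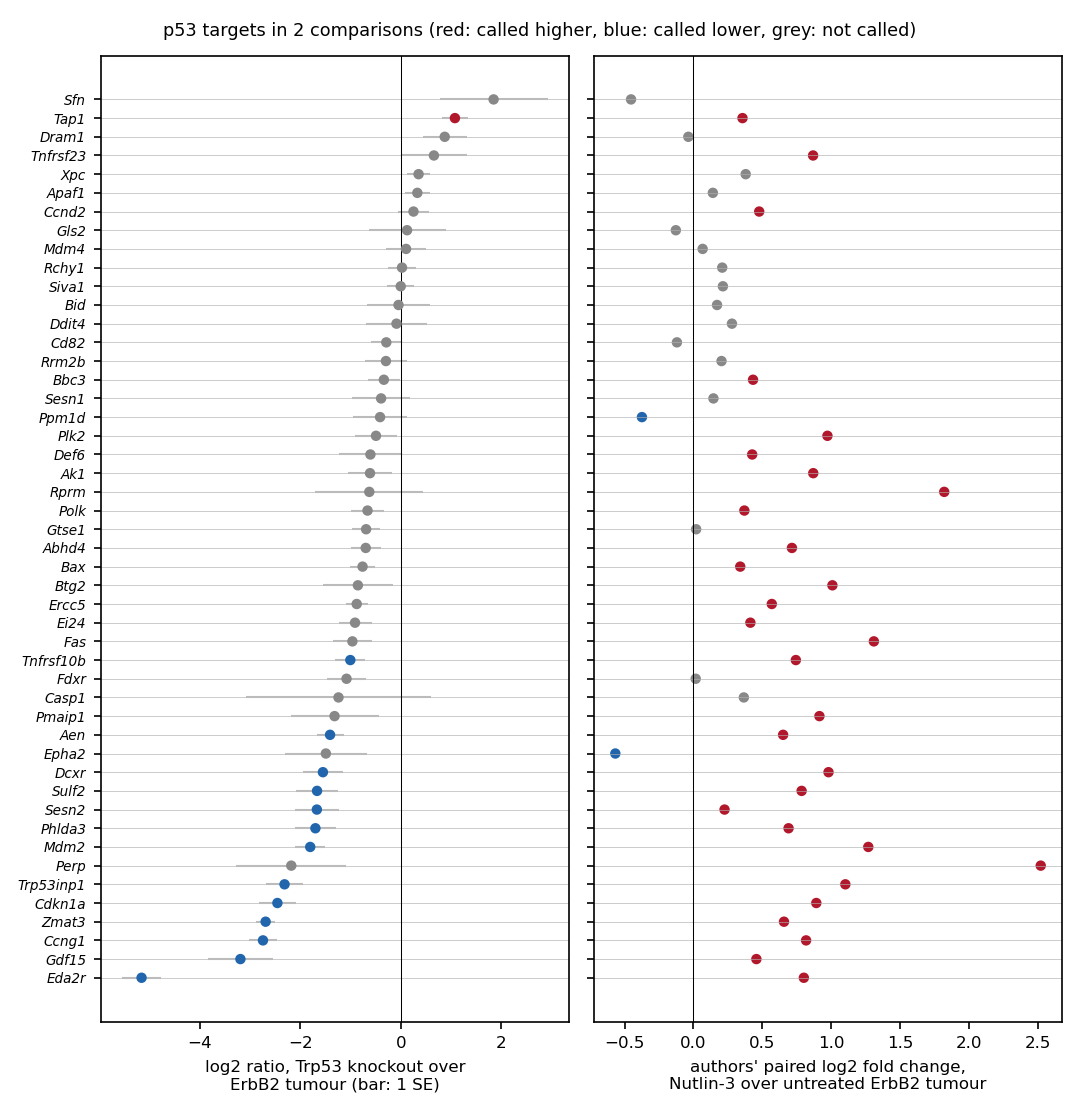
Left, log2 ratio of Trp53 knockout over ErbB2 tumour spheres for the 48 p53 targets in both tables, ordered by size, with bars of 1 standard error. Right, the authors' paired log2 fold change of Nutlin-3-treated over untreated tumour spheres for the same genes; 13 targets are blue on the left, with Eda2r the furthest at -5.16, and 30 are red on the right.

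The promoters of 3 of these targets show the letters that p53 is known to bind. In RefSeq windows (GRCm38.p6) of 250 bases before to 50 after the gene start, the 10-letter p53 half-site consensus, which reads the same on both strands, occurred in 13 of the 39 p53 targets with a window (33.3%), against 8.34% of all 9852 genes with one. It occurred in 34 of 291 genes called lower (11.7%) and 27 of 308 called higher (8.77%). A match is a description of the letters, not a bound site. The stretches below run 5′ to 3′ on the strand of the gene, with the matches in capitals, and come from Cdkn1a (chr17:29090859-29090978, plus strand, 2 matches), Mdm2 (chr10:117710915-117710964, minus strand) and Ccng1 (chr11:40755442-40755491, minus strand).
Cdkn1a: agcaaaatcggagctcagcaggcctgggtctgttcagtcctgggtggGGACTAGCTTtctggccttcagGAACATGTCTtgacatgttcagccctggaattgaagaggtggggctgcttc
Mdm2: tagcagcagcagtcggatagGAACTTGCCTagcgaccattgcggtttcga
Ccng1: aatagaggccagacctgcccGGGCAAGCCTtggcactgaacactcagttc

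Cdkn2a, which encodes both p16 and the p53 activator p19Arf, went the other way from Cdkn1a. It averaged 13612 in knockout spheres, against 1580 in tumour spheres (1081 and 2329 in the sets) and 2070 in wild type (3.11 ± 0.42, adjusted p = 2.98e-11). Its neighbour Cdkn2b, the gene of p15, averaged 1515 in knockout spheres, against 481 in tumour spheres and 1589 in wild type (1.65 ± 0.53, adjusted p = 0.0261), and was not called against the other 2 tumour libraries (1.45). Gene counts do not separate the p16 and p19Arf transcripts. Of the 8 CDK inhibitor genes, those 2 were higher and only Cdkn1a was lower (background 3.2% and 3.21%).

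The lists of mitosis and DNA replication held no called gene between the knockout and the tumour by the Wald test. None of 42 genes of mitosis and G2/M passed (median effect 0.21), and at an unadjusted p below 0.05 there was 1, a lower one. Of the 42 effects, 35 were above 0, where 6658 of all 13207 genes were. The median standard error of the list was 0.54, against 0.35 over all genes, so small differences could not be called. None of 40 genes of DNA replication passed (median effect 0.17, median standard error 0.44). In that list 30 effects were above 0, and 1 higher gene had an unadjusted p below 0.05. Mki67, the proliferation antigen, averaged 12394 in knockout spheres, against 10732 in tumour spheres and 3108 in wild type (0.21 ± 0.51, 95% interval -0.79 to 1.20). By the authors' deposited tables, 40 of the 42 mitosis genes were higher in the knockout and 41 in the tumour than in wild type, where 22.6% and 13.4% of all genes were; these comparisons share the wild-type libraries, which were also at an earlier passage. In the authors' deposited table of Nutlin-3, 41 of the 42 were lower in treated than in untreated tumour spheres.

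Myc, the growth-promoting transcription factor, averaged 4611 in knockout spheres, against 3457 in tumour spheres and 2738 in wild type (0.42 ± 0.24, adjusted p = 0.367, 95% interval -0.06 to 0.89). No member met both the 2-fold limit and the adjusted p of the Wald test among 34 genes of ribosome biogenesis (median effect 0.19), 24 nucleotide and one-carbon enzymes (0.09), 10 genes of the Myc network (0.03), 28 of oxidative phosphorylation (-0.02) or 35 ribosomal proteins (-0.33). By the adjusted p alone, 1 enzyme was higher, 1 enzyme was lower and 1 ribosomal protein gene was lower. At an unadjusted p below 0.05 there were 4 higher ribosome biogenesis genes, 1 higher and 3 lower enzymes, and 5 lower ribosomal protein genes, and no gene of the other 2 lists.

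Erbb2 itself was not called. It averaged 497 in knockout spheres, against 736 in tumour spheres (875 in the 3-library set and 529 in the other 2) and 1498 in wild type, an effect of -0.56 ± 0.50 (adjusted p = 0.631, 95% interval -1.54 to 0.41). The sources used here do not say whether transgene reads were counted in this gene, so the level does not check the label. Of the 12 ErbB receptors and ligands in both tables, 1 was lower and none higher (background 3.21% and 3.2%). That gene was Tgfa, an EGF receptor ligand, at 35.1 in knockout spheres, against 385 in tumour spheres and 167 in wild type (-3.42 ± 0.71, adjusted p = 9.65e-05). Btc, another ligand of the family, averaged 1026 in knockout and 2989 in tumour spheres and did not pass (-1.54 ± 0.66, adjusted p = 0.151). Etv1, an ETS factor of the MAPK pathway, was lower (-1.65 ± 0.29, adjusted p = 1.35e-06). It was the only gene called among 19 MAPK feedback genes, beside 6.41% of all genes.

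The interferon response had the largest median effect of the 44 lists. Interferons signal through STAT and IRF transcription factors to promoters with an interferon-stimulated response element (ISRE), and the induced genes encode antiviral sensors, effectors and chemokines. Of the 31 measured genes, 28 were higher and none lower in knockout than in tumour spheres, beside 3.2% and 3.21% of all genes, with a median effect of 2.88, which was 4.21 against the other 2 tumour libraries alone. All 31 were at least 2-fold higher by mean, as were 8.4% of all genes (8.96% were at least 2-fold lower), and 30 were at least 2-fold above both tumour sets. Among the genes not called were Ifit3 (3.33 ± 1.43, adjusted p = 0.151) and Oasl1 (2.32 ± 0.88, adjusted p = 0.0805).

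Among effectors and chemokines, Cxcl10, which attracts activated T cells, averaged 3272 in knockout spheres, against 36.1 in tumour spheres (43.8 and 24.6 in the sets) and 378 in wild type (6.46 ± 0.90, adjusted p = 2.05e-10). Oas2, a 2-5A synthetase of the RNase L pathway, averaged 1550 in knockout spheres, against 27.1 in tumour spheres (37.0 and 12.3) and 1901 in wild type (5.78 ± 0.81). Rsad2, the antiviral protein viperin, averaged 2810 in knockout spheres, against 110 in tumour spheres (116 and 100.5) and 1029 in wild type (4.66 ± 0.62). The tumour level was the low one for Oas2, whereas for Cxcl10 the knockout stood above the wild type as well. The ubiquitin-like modifier Isg15 averaged 3165 in knockout spheres, against 257 in tumour spheres and 2320 in wild type (3.62 ± 1.06, adjusted p = 0.012), and its tumour sets differed from each other, at 387 and 62.5.

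Sensors of nucleic acid were higher too. Zbp1, a sensor of Z-form nucleic acid that can trigger necroptosis, averaged 1658 in knockout spheres, against 23.2 in tumour spheres (19.6 and 28.6) and 847 in wild type (6.10 ± 0.75, adjusted p = 2.35e-13). The RNA sensor genes Ifih1 and Ddx58, which encode MDA5 and RIG-I, were higher by 2.60 ± 0.51 and 1.74 ± 0.31. Among the signalling factors Irf7 was higher by 3.55 ± 0.93, Stat2 by 1.89 ± 0.29, Irf9 by 1.57 ± 0.33 and Irf1 by 1.46 ± 0.33. Irf7, the regulator that amplifies type I interferon production, again varied among tumours, with 699 in the 3-library set and 162 in the other 2, both below 5699 in the knockout.

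Set against wild type, the interferon genes were lower in the tumour and partly higher in the knockout. By the authors' deposited tables, 15 of the 31 genes were higher and none lower in the knockout than in wild type (background 22.6% and 23.1%), and none was higher and 26 were lower in the tumour (background 13.4% and 13.7%). The wild-type spheres carried a lentiviral vector and were at passage 3, while knockout and tumour spheres were uninfected at passage 6 to 7, and the comparisons share those wild-type libraries. In the authors' deposited DESeq2 table of Nutlin-3, none of the 31 had an adjusted p below 0.05 and 1 had an unadjusted p below 0.05. Several of these genes belong to clusters of similar copies (Oas, Ifit, Gbp and Mx), where reads of one copy may be counted in another.

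Macrophages express many interferon genes, so their markers are given beside this result. Of 18 macrophage and myeloid markers, 9 were in both tables. Among these 9, 2 were lower and none higher in the knockout (background 3.21% and 3.2%). Summed over the 9, the level was 169 in knockout, 807 in tumour and 3537 in wild-type spheres, and Tyrobp and C1qa were at 0 in the knockout and at 0.23 and 0.72 in the tumour. Aif1 averaged 0 in knockout, 19.4 in tumour and 59.8 in wild-type spheres, and Cd68 58.7, 422 and 864 in the same order. Mrc1, the mannose receptor, went against the rest at 49.9 in knockout and 11.1 in tumour spheres (2.07 ± 0.82, adjusted p = 0.104). Of the 6 markers in the knockout table only, Cd14 alone was higher, at 732 in knockout and 309 in wild-type spheres. Fcer1g, C1qb, C1qc, Ctss and Laptm5 were lower, such as Ctss at 1.38 in knockout and 294 in wild-type spheres. The summed level of the 9 markers was lowest in the knockout, and its part in the interferon result was not tested. As in any bulk sample, fewer cells of a type and less RNA per cell cannot be told apart.

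The ISRE core (GAAA, any 2 bases, then GAAA), searched on both strands with overlapping matches counted, occurred in the promoter window of 14 of the 23 interferon genes with one (60.9%), against 3.73% of all 9852 genes. It occurred in 39 of 308 genes called higher (12.7%), 12 of 291 called lower (4.12%) and 1 of 39 p53 targets. These are descriptions of letters in a 300-base window, without any measure of binding. The stretches below, from RefSeq windows (GRCm38.p6), are from the 3 genes with the largest effects among those with a match, and from Isg15 for its overlapping matches. They run 5′ to 3′ on the gene strand, which is minus in each, with matches in capitals: Cxcl10 (chr5:92349073-92349122), Rsad2 (chr12:26456453-26456572, core on the opposite strand), Isg15 (chr4:156200819-156200938, 3 overlapping matches) and Oas3 (chr5:120777660-120777779).
Cxcl10: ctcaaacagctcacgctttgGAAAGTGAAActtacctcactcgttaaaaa
Rsad2: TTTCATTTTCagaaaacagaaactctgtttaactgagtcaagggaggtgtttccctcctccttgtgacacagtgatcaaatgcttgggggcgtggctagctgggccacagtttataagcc
Isg15: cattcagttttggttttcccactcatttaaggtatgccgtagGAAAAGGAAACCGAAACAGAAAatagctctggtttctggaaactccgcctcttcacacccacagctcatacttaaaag
Oas3: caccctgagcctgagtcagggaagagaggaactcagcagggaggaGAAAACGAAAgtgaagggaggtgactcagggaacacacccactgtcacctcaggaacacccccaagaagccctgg

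Of 15 measured genes of antigen presentation, 5 were higher and none lower (background 3.2% and 3.21%), with a median effect of 0.91. H2-T23, a nonclassical class I molecule that engages NK receptors, averaged 2228 in knockout spheres, against 238 in tumour spheres (206 and 286) and 392 in wild type (3.22 ± 0.32, adjusted p = 2.78e-20). The immunoproteasome subunits Psmb10 (1.36 ± 0.39) and Psmb8 (1.24 ± 0.26), Tap1 and the chaperone Tapbp (11191 in knockout and 5578 in tumour spheres, adjusted p = 0.045) completed the set. The classical class I genes were not called, with H2-K1 at 0.65 ± 0.23 and H2-D1 at -0.48 ± 0.30. H2 genes outside this list were called in both directions, H2-T22, H2-T24 and H2-Q5 higher, and H2-Q1, H2-Q2, H2-Q10, H2-T10 and H2-Bl lower. Class I genes are near-identical copies of each other, so their counts are uncertain.

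**Figure D3:**
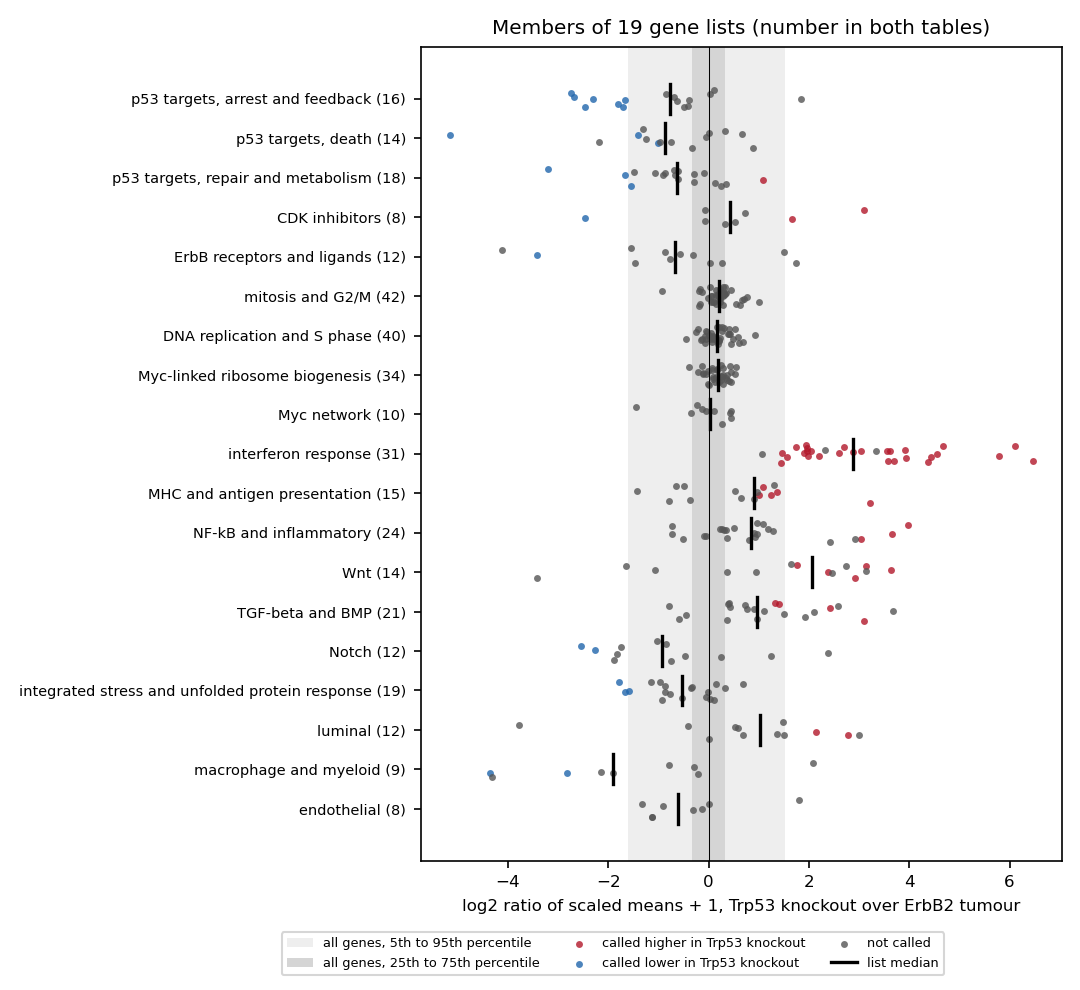
Log2 ratio of Trp53 knockout over ErbB2 tumour spheres for the members of 19 gene lists, 1 point per gene (red called higher, blue called lower, grey not called), with the list median as a black bar and the spread of all genes shaded. The interferon list has its median at 2.88 with 28 of 31 members red, while no member of the mitosis, replication, ribosome biogenesis or Myc network lists is coloured.

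Wnt pathway genes were higher in the knockout in 5 of 14 measured members and lower in none (background 3.2% and 3.21%), with a median effect of 2.06. By mean alone, 9 were at least 2-fold higher and 3 at least 2-fold lower, the lowest at -3.43 (background 8.4% and 8.96%). Axin2, a direct target and feedback inhibitor of Wnt signalling, averaged 350 in knockout spheres, against 27.1 in tumour spheres (25.8 and 29.2) and 495 in wild type (3.64 ± 0.50, adjusted p = 1.67e-10). The noncanonical ligands Wnt5b and Wnt5a were higher by 3.14 ± 0.84 and 2.37 ± 0.76, and Wnt5a, at 3007 in the knockout, was not called against the 3-library tumour set, which averaged 702. The secreted proteins Dkk3 and Frzb, a Wnt antagonist, were higher by 2.91 ± 0.53 and 1.75 ± 0.33. Rspo4, an R-spondin ligand that enhances Wnt signalling, was outside the list but among the 10 largest effects of all, at 878 in knockout spheres, against 12.2 in tumour spheres and 469 in wild type (6.06 ± 0.60, adjusted p = 3.05e-21). For Axin2 and Rspo4 the knockout was nearer to the wild type than the tumour was.

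In the TGF-beta and BMP list 4 of 21 genes were higher and none lower (background 3.2% and 3.21%), with a median effect of 0.97. Inhba, which encodes the activin A subunit, averaged 446 in knockout spheres, against 51.2 in tumour spheres and 751 in wild type (3.10 ± 0.83, adjusted p = 0.0047). Inhbb, the activin B subunit, was higher by 2.41 ± 0.60, the receptor Tgfbr1 by 1.40 ± 0.38 and the ligand Tgfb3 by 1.31 ± 0.33. Of 24 NF-kB and inflammatory genes, 3 were higher and none lower (same background), with a median effect of 0.85. They were Ptgs2, the prostaglandin synthase COX-2, at 5196 in knockout and 411 in tumour spheres (3.66 ± 0.63), and the chemokines Ccl5 (3.97 ± 1.29) and Cxcl12 (3.03 ± 0.99). The Cxcl12 mean of 1020 in the tumour combined 343 in the 3-library set with 2036 in the other 2, and the knockout reached 8352. Cxcl12 was not called against the other 2 libraries (2.04), nor Ccl5 against the 3-library set (3.40).

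Among survival genes 3 of 14 were called, and among stress genes 3 of 19, beside 6.41% of all genes. Of 14 BCL2 family genes, the proapoptotic BH3-only genes Bmf (2.42 ± 0.58) and Bcl2l11 (1.18 ± 0.22), which encodes Bim, were higher, and Bok, a proapoptotic relative of Bax, was lower (-1.48 ± 0.30). Of 19 genes that respond to amino acid lack and unfolded proteins, Vldlr (-1.80 ± 0.56), Sesn2 and the amino acid transporter Slc7a5 (-1.58 ± 0.42) were lower and none was higher. Slc7a5 averaged 5004 in knockout spheres, against 14987 in tumour spheres and 6957 in wild type.

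The largest single effects lay mostly outside these lists. Clu, the chaperone clusterin, averaged 10176 in knockout spheres, against 121 in tumour spheres and 2658 in wild type (6.38 ± 1.74, adjusted p = 0.00601), with tumour sets at 183 and 28.7. The 10 highest also included the scavenger receptor Scarf2 (6.56 ± 0.52), the adenylyl cyclase Adcy8 (6.30 ± 1.54), the fibrillin Fbn2 (6.03 ± 1.35), the noncoding Snhg11 (1367 in knockout and 20.3 in tumour spheres) and the myosin Myo7a (5.79 ± 0.78).

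At the other end, Ifi202b, an interferon-inducible HIN-200 gene that binds DNA, averaged 7.46 in knockout spheres, against 4064 in tumour spheres (4666 and 3161) and 4547 in wild type (-8.91 ± 0.45, adjusted p = 5.12e-82). This was the largest effect of either sign among the named genes and ran opposite to the interferon list, of which it was not a member; it belongs to a cluster of similar copies. Ucp2, a mitochondrial carrier, averaged 154 in knockout spheres, against 8395 in tumour spheres and 6747 in wild type (-5.76 ± 0.35, adjusted p = 1.02e-55). Pianp averaged 72.5 in knockout, 2973 in tumour and 5771 in wild-type spheres (-5.34 ± 0.67). In these genes the knockout was the group apart.

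For Sele and Podxl the tumour was the group apart. Sele, the adhesion receptor E-selectin, averaged 548 in knockout spheres, against 15311 in tumour spheres (14988 and 15795) and 379 in wild type (-4.80 ± 0.54, adjusted p = 6.46e-16). Podxl, the sialomucin podocalyxin, averaged 198 in knockout, 4559 in tumour and 506 in wild-type spheres (-4.52 ± 0.95). Ntrk2 and Sapcd1 were below the wild type in the knockout and above it in the tumour. Ntrk2, the neurotrophin receptor TrkB, averaged 30.7 in knockout spheres, against 3601 in tumour spheres and 425 in wild type (-6.83 ± 0.92), and Sapcd1 10.3 in knockout, 2736 in tumour and 285 in wild-type spheres (-7.92 ± 0.96). Serpina3h (-4.38 ± 1.48), a member of a multicopy serpin cluster, and the transcription cofactor Vgll3 (-4.11 ± 1.13) completed the 10 lowest together with Eda2r. Serpina3h was not called against the other 2 tumour libraries (-3.01).

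**Figure D4:**
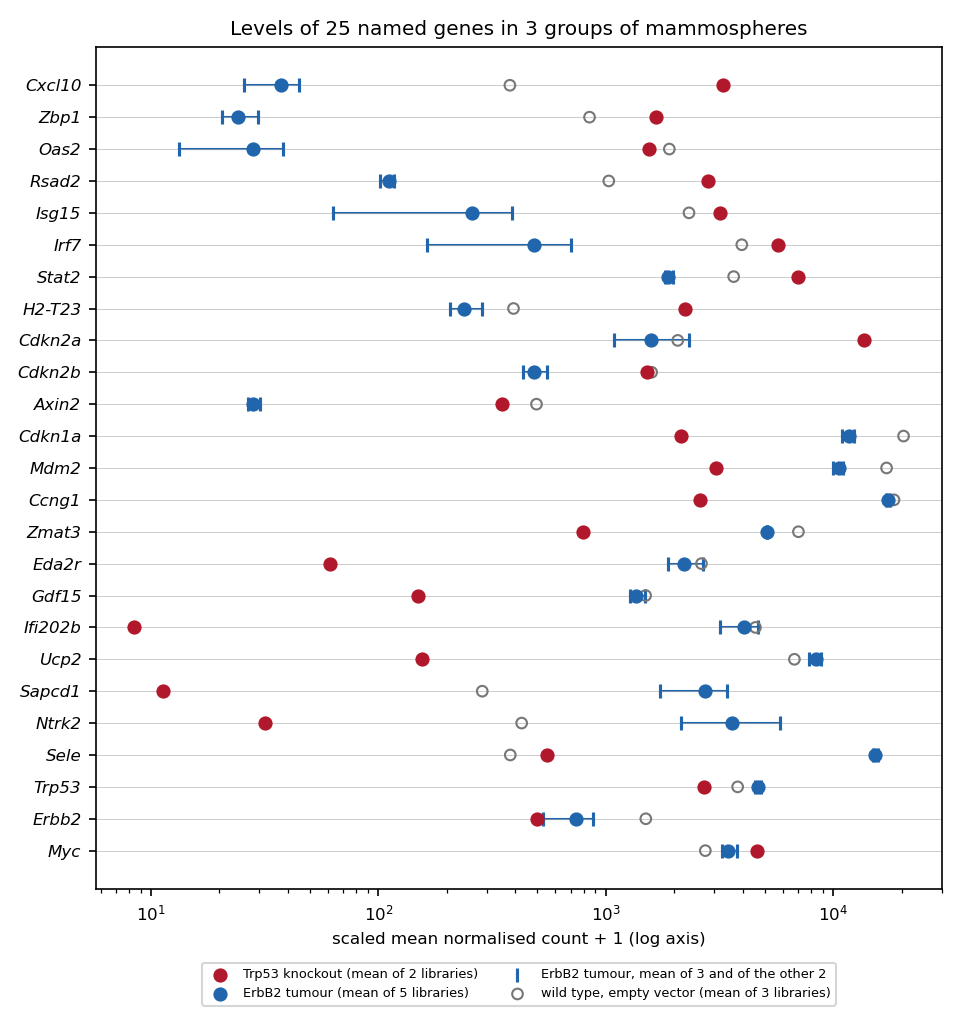
Scaled mean normalised count plus 1 on a log axis for 25 named genes in Trp53 knockout (red), ErbB2 tumour (blue, with the means of 3 and of the other 2 tumour libraries as joined ticks) and wild-type empty-vector spheres (open grey). Interferon genes such as Cxcl10 have red to the right of both blue ticks, p53 targets from Cdkn1a to Gdf15 have red to the left, and Erbb2 lies at 497 in knockout and 736 in tumour spheres.

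Markers were used to see which cells the spheres held. Several defining epithelial markers were near the floor in the knockout: Krt8 30.3, Epcam 7.11, Cdh1 4.90 and Krt14 0.917, against 959, 538, 446 and 222 in wild type. These genes are in the knockout table only, as are 10 of the 25 luminal markers, and their tumour level is not analysed here. Of the 12 luminal markers in both tables, 2 were higher and none lower (background 3.2% and 3.21%). They were Muc1 (2.79 ± 0.87) and the receptor Kit (2.14 ± 0.67), while Krt18, at 1407 in knockout and 175 in tumour spheres, did not pass (adjusted p = 0.276). Krt19 and Ehf, in the knockout table only, averaged 447 and 845 in knockout spheres, against 136 and 146 in wild type. None of 10 basal markers was called by the Wald test, nor had any an unadjusted p below 0.05. The 8 endothelial markers in both tables held no called gene and summed to 6704 in knockout, 12771 in tumour and 7884 in wild-type spheres. Another 8 were in the knockout table only, all lower in knockout than in wild-type spheres, such as Cdh5 (9.24 and 1762) and Pecam1 (20.6 and 1498). Mesenchymal genes were abundant in both groups, with Vim at 99907 in knockout, 187904 in tumour and 98813 in wild-type spheres. The 20 fibroblast markers summed to 756063 in knockout, 737939 in tumour and 1040520 in wild-type spheres. Of these, Ly6a was higher (2.58 ± 0.68) and Pdgfra lower (-1.40 ± 0.34) in the knockout (background 3.2% and 3.21%). The 4 keratins in both tables summed to 1569 in knockout, 318 in tumour and 959 in wild-type spheres. Krt18 made up most of the knockout sum. A further 6 keratins were in the knockout table only. All of those except Krt19 had a lower mean in knockout than in wild-type spheres, such as Krt7 at 2.18 against 381. In the knockout the epithelial markers were thus present only in part. For the tumour only the markers in both tables can be read, because the defining markers above were not analysed there. The 12 luminal markers in both tables summed to 2357 in tumour, 2694 in knockout and 4112 in wild-type spheres. By the authors' deposited tables, 6 of the 12 were lower and none higher in tumour than in wild type (background 13.7% and 13.4%). In the knockout 6 were lower and 1 higher (background 23.1% and 22.6%). The mammary label rests on the tissue of origin.

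Matrix, mesenchymal, homeobox and imprinted genes were called in both directions, 3 in each list, beside 6.41% of all genes. Of 18 collagen and basement membrane genes, Col7a1 of anchoring fibrils was higher (3926 in knockout and 337 in tumour spheres, 3.54 ± 0.66), and Tinagl1 (1365 in knockout and 14841 in tumour spheres, -3.44 ± 0.69) and Col18a1 (-1.92 ± 0.61) were lower. Of 22 genes of epithelial-mesenchymal transition, Twist2 (2.59 ± 0.89) and Loxl2 (1.05 ± 0.31) were higher, though against the 3-library tumour set Twist2 was not called (2.08) and Loxl2 fell just short of the 2-fold limit, and S100a4 was lower, at 6824 in knockout and 27262 in tumour spheres (adjusted p = 3.93e-06). Among 25 homeobox and T-box genes, Hoxc10 (5.09 ± 1.45) and Tbx2 (3.43 ± 0.66) were higher and Alx4 (-2.31 ± 0.66) was lower. Alx4 was low in both groups, at 20.6 in knockout and 106 in tumour spheres, against 4820 in wild type. Among 17 imprinted genes, Nnat (3.13 ± 0.61) was higher, and Slc22a18 (-4.64 ± 0.76) and Ndn (-2.58 ± 0.81) were lower.

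Of the 1492 genes in the knockout table only, 576 had a scaled wild-type mean of at least 100, so absence from the ErbB2 table does not mean a low level, and no ratio or bound was derived from it. Of 851 genes in the 44 lists, 727 were in both tables.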

How the data were processed

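Polyadenylated RNA of mouse mammospheres was sequenced, with biological replicates per the file headers. The submitters' processing notes name CASAVA 1.9, TopHat2 2.0.8, Bowtie2 2.1.0, SAMtools 0.1.18, HTSeq 0.5.3p9, DESeq2 1.10.1 and the build mm10. The deposited signal is the mean normalised read count per group, for genes with a mean above 10 per the file headers. The deposited log2 fold changes and p-values come from the authors' DESeq2 contrasts, paired by tumour for Nutlin-3. The tables headed only as wild type were matched to the empty-vector group by the labels. Depth per library is unknown because only group means are given, so edgeR or limma could not be used; summed scaled means over shared genes were 35537200 in knockout, 37842500 in tumour and 38904300 in wild-type spheres.

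Scaling used the median ratio of the wild-type means. The standard error of each table's ratio was the larger of the authors' log2 fold change and the log2 ratio of means (pseudocount 1), divided by the normal quantile of the authors' p-value. Squared errors were added, which counts the shared control's error although it cancels. The test was approximate and was tested on simulated data. Left out were 3 entries of the knockout table that name no gene (28.2% of its summed knockout means). The tumour split multiplied the Nutlin-3 table by 1.05 and subtracted; 2 genes gave a negative mean. Coordinates came from GENCODE M21 (95.4% of symbols matched). Calculations used Python 3.11.15, numpy 2.4.6, scipy 1.17.1 and pandas 2.3.3.

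Members and lists (44 lists of 6 to 42 genes) were chosen with earlier results of these data known. Named genes were Trp53, Cdkn1a, Mdm2, Cdkn2a, Erbb2 and Myc; the 10 highest and 10 lowest effects among called genes with a mean level at or above the called median of 430, without gene models that lack a standard symbol; up to 4 called genes per direction from lists with at least 3 called; and p53, ErbB and cell type markers. Other genes named as examples, or because a count was 5 or fewer, were chosen after their values were seen. A few genes that the rule names are not reported here. The sources used here do not state whether counting used strand, so overlapping genes on opposite strands may share reads.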

Additional observations from a re-analysis of the deposited data

How the results depend on the processing

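The calls rest on an approximate test from group means, with 2 knockout libraries. No paired analysis was possible because the tables hold only group means, and leaving out single replicates was not possible for the same reason. A 2-fold limit without a test gave 1109 higher and 1183 lower genes, and a 4-fold limit with the test gave 266 and 254. Scaling to equal sums gave 482 higher and 373 lower, where the wild-type scaling gave 422 and 424. The alternatives of centring, pseudocount 0.5 or 10, a mean of at least 50, the authors' fold changes and adjusted p alone stayed within 350 to 521 higher and 335 to 545 lower. No named gene changed sign under any alternative run. List medians, which carry no test, changed sign in 14 cases over 11 lists. The medians of those lists lay between -0.39 and 0.16 and moved to between -0.15 and 0.18. Of the gene values, 548 kept their state, which includes Trp53, Erbb2 and Myc, uncalled throughout. Another 12 lost their call, of Tnfrsf10b, Serpina3h, Tap1, Cdkn2b, Cxcl12, Twist2, Loxl2, Ccl5 and Wnt5a. The cause was not tested. Against the other 2 tumour libraries the interferon median was 4.21 and the medians of the p53 arrest and death lists were -1.20 and -0.44, and the adipocyte median was -0.15. The p53 arrest median was -1.26 over genes with a mean of at least 50, and the macrophage median -0.56 with a pseudocount of 10.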

Other observations

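Called genes were unevenly placed along the genome. In windows of 5 Mb with at least 30 tested genes, of which there were 144, the highest share was on chromosome 17 from 35 to 40 Mb, where 4 genes were higher and 13 lower of 62 (27.4%). This window holds part of the major histocompatibility complex. H2-T23, H2-T24 (184 in knockout and 34.6 in tumour spheres), H2-T22 and H2-Q5 were higher. H2-Q1 (1.38 in knockout, 154 in tumour and 184 in wild-type spheres) and H2-Q10 (8.03, 120 and 119 in the same order) were lower. H2-Q2, H2-T10 and H2-Bl were lower too. The neighbouring genes Sapcd1, Vwa7 (16.9 in knockout and 313 in tumour spheres), Msh5 (53.2 and 390) and Clic1 were lower as well. The window was singled out after its values were seen, and these genes overlap or resemble each other.

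The tumour libraries were not alike. Of 11378 genes with a tumour mean of at least 50, 257 (2.26%) differed at least 4-fold between the means of the 2 tumour sets. Of the 257, 225 were higher and 32 lower in the 3-library set than in the other 2 libraries. Because the mean of the other 2 is a remainder after subtraction, its low values, and so these counts, depend on the scaling. In all, 42 of the 257 were called against the knockout, beside 6.41% of all genes. Prom1, a progenitor surface marker, averaged 1028 and 23.9 in these sets, against 202 in the knockout, and the BMP antagonist Grem1 3330 and 149, against 12230 in the knockout. Neither was called.

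Of 12 measured Notch pathway genes, 2 were called lower and none higher (background 3.21% and 3.2%). They were Jag1, a ligand, at 201 in knockout and 975 in tumour spheres (-2.27 ± 0.66), and Notch4 at 444 in knockout and 2595 in tumour spheres (-2.54 ± 0.58). Spp1, the secreted protein osteopontin, was the called gene with the highest mean, at 684585 in knockout, 267325 in tumour and 448168 in wild-type spheres (1.36 ± 0.30, adjusted p = 2.23e-04). In the IGF list of 11 genes, 1 was called higher and 1 lower (background 3.2% and 3.21%). The binding proteins split, with Igfbp5 higher (8354 in knockout and 923 in tumour spheres) and Igfbp6 lower (3276 and 8980).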
